A study of Mus musculus with 6 samples.

Results

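The genes Grhl2, Klf5, Elf3 and Esrp1 belong to the regulators that set up and keep the epithelial state, and the accessible regions around them were followed in NMuMG cells treated with BRM014. NMuMG is an established epithelial line from normal mouse mammary gland, labelled here as wild type. BRM014 inhibits the ATPase subunits of the SWI/SNF complexes, which slide and evict nucleosomes. ATAC-seq, the assay used, marks open DNA by letting the transposase Tn5 cut it and attach adapters for sequencing. The 6 samples formed 3 groups of 2 biological replicates, namely cells given the vehicle DMSO, cells given BRM014 for 6 h and cells given BRM014 for 30 h. Only the name of the DMSO list gives the time of vehicle treatment, 30 h, and both BRM014 groups were set against that list. The authors made 1 list of accessible regions from both replicates of each group, so no value below has a replicate error and no test between treatments was possible.

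Members were all regions that overlap 4 windows of the mouse build mm9, with overlapping entries of a list merged into 1 region. The windows were chr15:37060000-37400000 for Grhl2, chr14:99400000-100100000 for Klf5, chr1:137080000-137230000 for Elf3 and chr4:11160000-11410000 for Esrp1. They held 51 of the 42310 DMSO regions, 24 of the 25922 regions at 6 h and 41 of the 38422 regions at 30 h. Of the DMSO regions, 12 lay in the Grhl2 window, 26 in the Klf5 window, 9 in the Elf3 window and 4 in the Esrp1 window, and they are numbered here along the chromosome within each window. The windows were 340, 700, 150 and 250 kb long, so DMSO regions stood at 3.53, 3.71, 6.00 and 1.60 per 100 kb. A window also holds DNA next to its gene. In the RefSeq gene order of the assembly GRCm38.p6, Grhl2 lies between Zfp706 and Ncald, Klf5 between Pibf1 and Klf12, Elf3 between Gpr37l1 and Rnpep, and Esrp1 between Dpy19l4 and Virma. Which regions are promoters, exons or introns was not analysed here, and accessibility is not a measure of expression.

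GRHL2 is a grainyhead transcription factor that binds enhancers of cell adhesion genes in epithelia. KLF5 is a zinc finger factor of the Krüppel-like family with a role in proliferating epithelial cells, and ELF3 is an epithelial member of the ETS family of transcription factors. ESRP1 is not a transcription factor but an RNA-binding protein that directs splicing towards the epithelial isoforms of many transcripts. SWI/SNF is known to act mainly at enhancers, where it keeps DNA open for such factors.

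The promoter table used here, from RefSeq on GRCm38.p6, held 1 of the 4 members, Elf3. Its 250 bases before the start are shown because they hold matches to a pair of the motifs searched, given in capitals, on the strand of the gene (minus):
Elf3: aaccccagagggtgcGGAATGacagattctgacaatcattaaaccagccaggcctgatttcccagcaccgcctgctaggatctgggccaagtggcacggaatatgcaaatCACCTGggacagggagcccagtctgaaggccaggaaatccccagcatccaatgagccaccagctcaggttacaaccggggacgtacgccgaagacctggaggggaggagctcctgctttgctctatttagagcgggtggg
The first run of capitals is the TEAD motif GGAATG, which begins 235 bases before the start and is found on either strand in 12.6% of the 32817 promoters of the table over the same length. The second is the E-box CAGGTG of the Zeb and Snail repressors, read on the opposite strand and beginning 140 bases before the start, which 17.2% of promoters hold. No match was found for the GRHL motif AACCGGTT or its looser form AACCNGTT, the KLF motifs GGGCGGG and CCACACCC, the ETS motif AGGAAG or the AP-1 motif TGACTCA, which 0.116%, 1.78%, 23.4%, 3.19%, 29.5% and 4.46% of promoters hold. GRHL motifs of the strict form are also counted in the looser one. These letters were not joined to the mm9 regions below, since no position was converted between builds.

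With 6 h of BRM014, 27 of these 51 regions were not called, 52.9% (95% Wilson interval 39.5 to 65.9%), against 43.6% of all DMSO regions. At 30 h, 14 were not called, 27.5% (17.1 to 40.9%), against 26.1% of all. Both shares over all regions lay within the intervals of the members. With the same number of strongest regions taken from every list, 11 of 32 DMSO regions in the windows were missing at 6 h (34.4%), against 23.1% of all. Missing here means only that no region was called, so the DNA may still have been open to some degree, and the intervals cover counting error only.

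**Figure D1:**
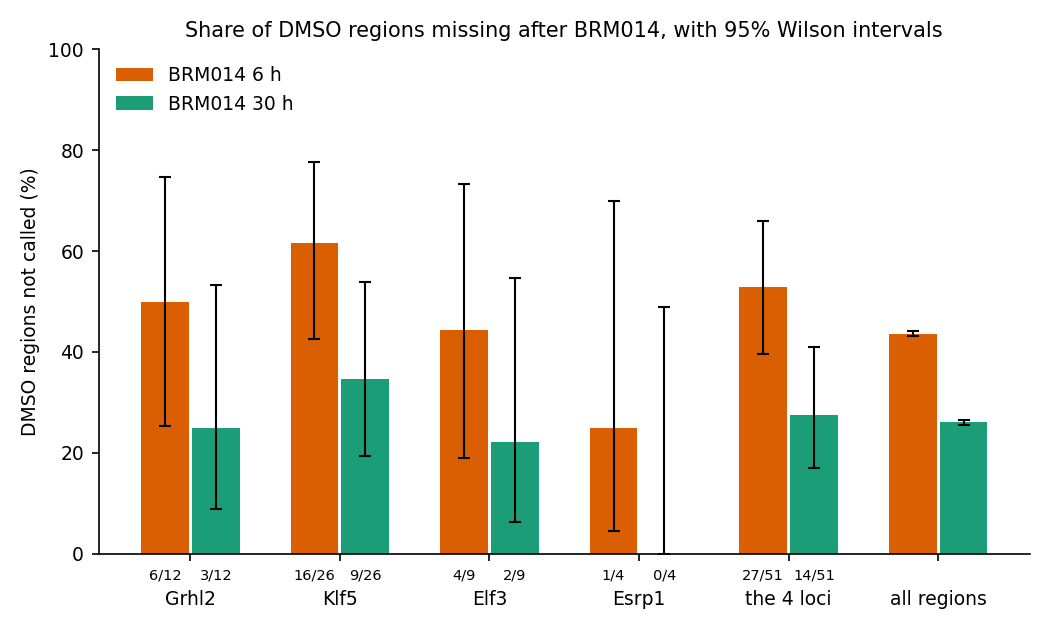
Share of DMSO regions with no overlapping region after BRM014 for 6 h (orange) and 30 h (green), per window, for the 4 loci together and for all regions; bars start at 0, lines are 95% Wilson intervals and the counts stand below the bars. The Klf5 window had the largest share missing at 6 h, 16 of 26, and the interval of the 4 loci together includes the share of all regions at both times.

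The 51 regions fell into 3 of the 4 possible classes. Called at both times were 24 (47.1%, against 54.1% of all DMSO regions), missing at 6 h only were 13 (25.5%, against 19.9%) and missing at both times were 14 (27.5%, against 23.7%). None was missing at 30 h only, a class that held 2.33% of all. Of the 27 regions missing at 6 h, 13 were called at 30 h (48.1%, against 45.6% of all regions missing at 6 h). The 6 h list was the shallowest of the 3, which came from separate samples, so a call at 30 h alone does not show that accessibility returned. Missing regions were the lower ones. To compare heights between lists, the number of reads piled up at a summit was recovered from the deposited values and divided by the lowest background of its list, which was taken as the genome average. This summit height is therefore a multiple of the average background. Regions missing at 6 h had DMSO heights of 10.7 to 66.3 with a median of 22.6, against 15.7 to 188 with a median of 79.9 for those still called. Of the 14 DMSO regions in deciles 8 to 10 by the authors' -log10 q, 1 was missing at 6 h (7.14%, against 7.15% of all regions in these deciles) and 0 at 30 h (against 2.33%). In deciles 5 to 7, 10 of 18 were missing at 6 h (55.6%, against 37.5%) and 4 at 30 h (22.2%, against 17.6%). At the shares missing among all DMSO regions of like pileup (the same bin on a scale of 4 bins per doubling), 22.3 of the 51 would have been missing at 6 h and 13.1 at 30 h, beside the 27 and 14 found.

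**Figure D2:**
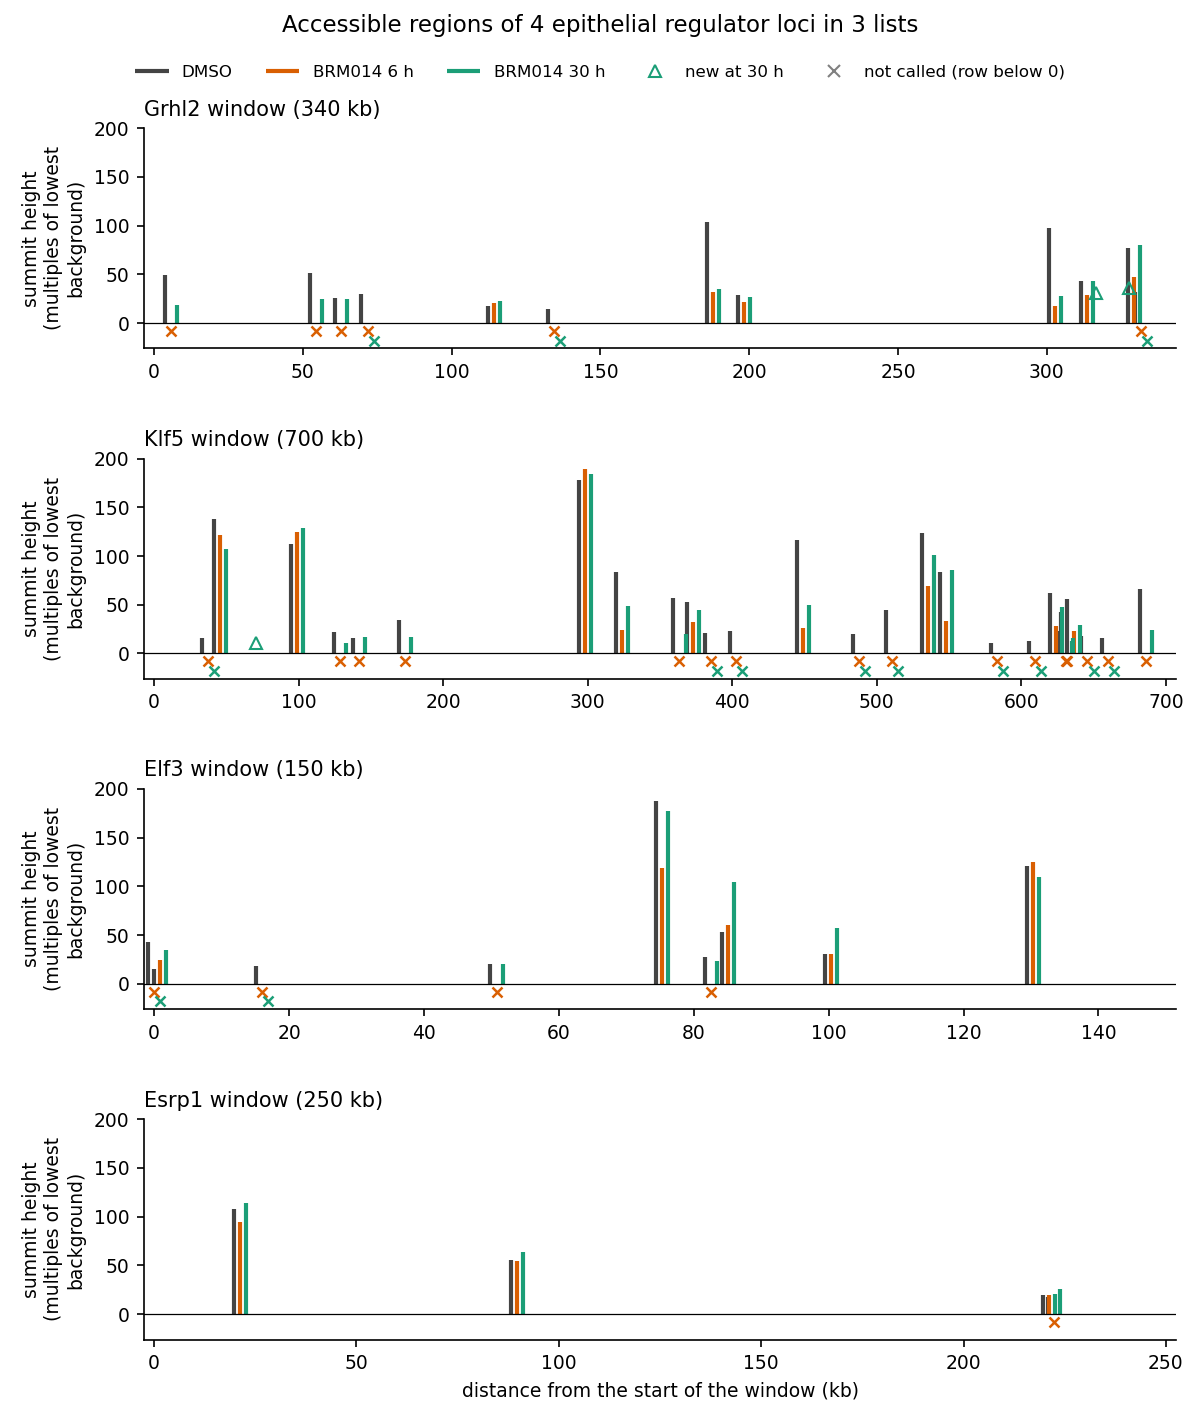
Summit height of each region (multiples of the lowest background of its list) against its distance from the start of the window in kb, for DMSO (grey), BRM014 6 h (orange) and BRM014 30 h (green), drawn side by side around the middle of the DMSO region; crosses below 0 mark DMSO regions that were not called and triangles mark regions new at 30 h. Every region taller than 66.3 in DMSO was called in all lists, and the 2 tallest of the Grhl2 window, at 104 and 97.5 in DMSO, stood at 32.1 and 17.9 at 6 h.

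In the Grhl2 window both leading regions stood far below their DMSO height at both times. Region 7 (chr15:37247460-37248381) had a height of 104 in DMSO, 32.1 at 6 h and 35.0 at 30 h. Region 9 (chr15:37362198-37363323), with 4 summits, had heights of 97.5, 17.9 and 28.0. Both treated values therefore lay below the DMSO value in each region. At 6 h region 7 was at 30.8% of DMSO (counting interval 23.4 to 40.0%) and region 9 at 18.4% (12.8 to 25.8%), and at 30 h they were at 33.5% (26.4 to 42.2%) and 28.7% (22.1 to 36.9%). These counting intervals are exact intervals of a ratio of 2 pileups and hold no biological variation. Of all DMSO regions in the same decile by -log10 q, decile 9, 7.49% stood at or below region 9 at 6 h and 6.24% at 30 h, with missing regions as 0. For region 7 these shares were 15.9% and 8.58%. Between regions 8 and 9 lay the longest stretch without a call, 103 kb in all 3 lists.

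At the end of the Grhl2 window with the lowest coordinates, regions 1 to 4 were all missing at 6 h. Region 1 (chr15:37065201-37065908), the third of the window by -log10 q, had a height of 49.0 in DMSO and 18.4 at 30 h, which was 37.5% (26.8 to 51.8%). Region 2 had 51.4 and 24.7, at 48.0% (35.6 to 64.0%), and region 3 had 26.1 and 24.3, at 92.9% (66.5 to 129%). So 2 of these 3 regions stood below 50% of DMSO at 30 h, against 9.98% of all DMSO regions called at 30 h. The share among all regions missing at 6 h only was not computed. With the depth scale taken from the median pileup of regions called in all lists, region 1 was at 42.1% and region 2 above 50%, at 53.8%. Of all DMSO regions with a pileup like that of regions 1 and 2, 31.4% were missing at 6 h. For regions 3 and 4 these shares were 62.8% and 57.3%. Region 4, with a height of 29.7, and regions 6 and 12, with 14.6 and 31.5, were missing at both times. Called in all lists were 4 further regions: region 5 had 17.2 in DMSO, 20.3 at 6 h and 22.5 at 30 h, region 8 had 28.5, 22.2 and 26.5, region 10 had 43.4, 29.2 and 43.4, and region 11 had 76.7, 47.2 and 80.2. Region 5 stood above its DMSO height at both times, with counting intervals of 77.4 to 178% and 89.4 to 190% that include 100% on this depth scale. On the scale from the median pileup, region 5 was at 168% and 146%. There region 8 stood above its DMSO height too, at 111% and 104%. Of the 11 regions of this window at 30 h, 2 were new, against 17.9% of all 30 h regions. Both new regions lay at the far end, chr15:37376370-37376686 with a height of 30.6 and chr15:37387377-37387744 with 36.1. Neither was called at 6 h, and by -log10 q both were in the lower part of the 30 h list, with 37.8% and 24.4% of its regions at or below them.

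The Klf5 window was the longest. It had more missing regions than the other 3 windows, with 16 of 26 absent at 6 h (61.5%, 42.5 to 77.6%) and 9 absent at 30 h (34.6%, 19.4 to 53.8%). At the shares missing among all DMSO regions of like pileup, 11.2 of its 26 regions would have been missing at 6 h and 6.72 at 30 h. Its tallest region, 7 (chr14:99697405-99698637), had heights of 178 in DMSO, 189 at 6 h and 184 at 30 h. Regions 2 and 3 had 138, 122 and 107, and 112, 125 and 129. These 3 regions kept 77.4 to 116% of their DMSO height in both treated lists. Other tall regions of the window differed more between the lists. Region 13 (chr14:99848239-99849524) had 116 in DMSO, 26.4 at 6 h and 50.1 at 30 h, which was 22.7% (16.8 to 30.1%) and 43.0% (35.1 to 52.4%). Region 8 had 83.2, 23.6 and 48.6, and region 17 had 83.5, 33.0 and 85.8. Region 16 (chr14:99934717-99935620), the second of the window by -log10 q, had 124, 68.9 and 101. All 4 were lower at 6 h than at 30 h. At 30 h region 17 stood at 103% of DMSO (86.0 to 123%) and region 13 at 43.0%. Only 5.93% of all DMSO regions of decile 10 stood at or below region 13 at 6 h, with missing regions as 0.

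Regions 10, 20 and 23 of the Klf5 window were also called at both times, at 41.6 to 61.5% of DMSO at 6 h and 52.3 to 83.5% at 30 h. The 7 regions missing at 6 h only had DMSO heights of 16.3 to 66.3. When called at 30 h, 5 of them stood below 50% of DMSO, against 9.98% of all DMSO regions called at 30 h. The share among all regions missing at 6 h only was not computed. With the depth scale taken from the median pileup of regions called in all lists, regions 4 and 6 stood above 50%, at 55.5% and 54.8%. The tallest of the 7, region 26 (chr14:100086007-100086969), had 66.3 in DMSO and 24.3 at 30 h, which was 36.7% (27.4 to 48.5%). Of all DMSO regions of like pileup, 16.2% were missing at 6 h. The 9 regions missing at both times had heights of 10.7 to 44.9. The tallest of these, region 15 (chr14:99909920-99910577), had 44.9, and 18.6% of DMSO regions of like pileup were missing at 30 h. It was followed by -log10 q by region 12 with 23.5 and region 14 with 19.6. The longest gap between called regions grew from 123 kb in DMSO to 198 kb at 6 h, because regions 4, 5 and 6 were not called, and was 124 kb at 30 h. Of the 18 regions of this window at 30 h, 1 was new, against 17.9% of all 30 h regions. This new region, chr14:99470462-99470783, was weak, with a height of 10.3 and only 1.33% of the 30 h list at or below it by -log10 q.

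**Figure D3:**
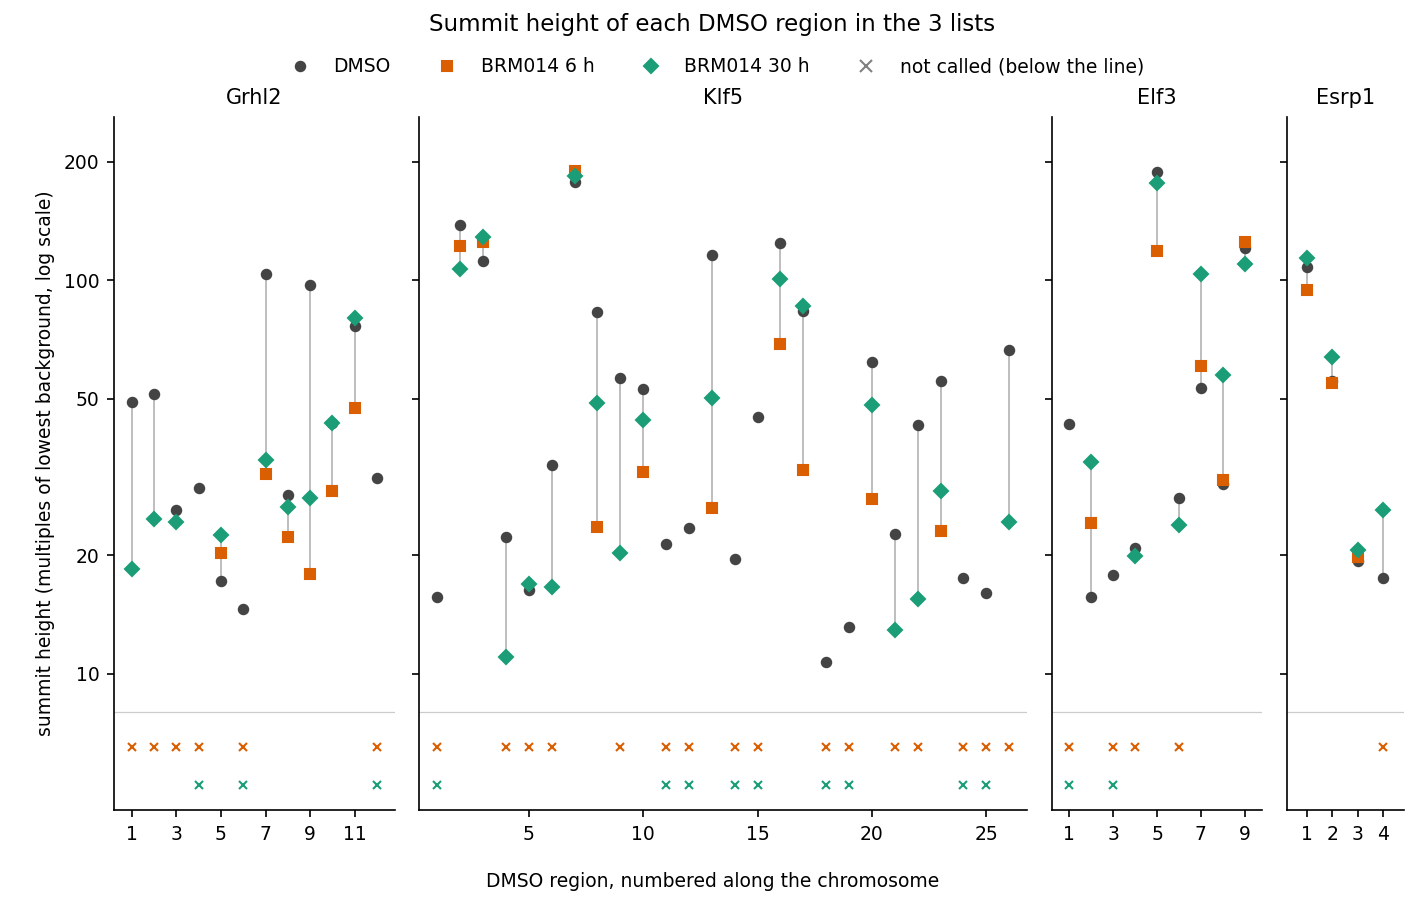
Summit height (multiples of the lowest background of the list, log scale) of each of the 51 DMSO regions, numbered along the chromosome, in DMSO (circles), BRM014 6 h (squares) and BRM014 30 h (diamonds); crosses below the grey line mark regions that were not called. Klf5 regions 2, 3 and 7 have their 3 points close together, Klf5 regions 8 and 13 and Grhl2 regions 7 and 9 have both treated points well below the DMSO point, and Elf3 regions 2, 7 and 8 have the 30 h point on top.

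In the Elf3 window 3 regions stood at about double their DMSO height at 30 h. Region 7 (chr1:137164640-137165474) had heights of 53.2 in DMSO, 60.4 at 6 h and 104 at 30 h, which was 1.95 times DMSO (161 to 237%). Region 8 (chr1:137179770-137180950) had 30.3, 31.1 and 57.4, or 1.89 times at 30 h (147 to 246%), and region 2 (chr1:137080589-137081103) had 15.7, 24.1 and 34.6, or 2.20 times (155 to 314%). In all 3 the 30 h value was the highest and its counting interval lay above 100%. At or below these regions at 30 h stood 99.4%, 98.2% and 96.0% of all DMSO regions of the same decile by -log10 q. Region 2 was among the weakest members in DMSO, in decile 1, with a fold enrichment of 4.82 and a score of 578. Its height, like all heights here, includes the local background, which was not subtracted. Regions 2 and 8 were named after their values were seen. At 6 h region 2 was already at 153%, with an interval above 100% (102 to 229%). Regions 7 and 8 were then at 114% (89.8 to 143%) and 103% (74.2 to 141%), with 100% inside the intervals. With the depth scale taken from the median pileup of regions called in all lists, they were at 162% and 147% at 6 h. Whether they rose by 6 h or only later therefore depends on the scale.

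The tallest region of the Elf3 window, and of all 51, was region 5 (chr1:137154746-137155942), with heights of 188 in DMSO, 119 at 6 h and 177 at 30 h. At 6 h it was at 63.1% (54.3 to 73.1%) and at 30 h at 93.8% (83.1 to 106%). It was called as 1 region of 1197 bp in DMSO and as 2 at 30 h, whose widths add up to 1076 bp. Region 9 (chr1:137209991-137210728), the second by -log10 q, had 121, 125 and 110. Both of its counting intervals include 100% on this depth scale, while on the scale from the median pileup it was at 148% at 6 h. Regions 4 and 6, with 20.8 and 27.9 in DMSO, were missing at 6 h only and stood at 19.9 and 23.9 at 30 h. Regions 1 and 3, with 43.1 and 17.8, were missing at both times. No other region of this window was missing at 30 h. Region 1 (chr1:137079643-137080347) crosses the edge of the window and ends shortly before region 2. Region 3 is the next after region 2 in order but starts only at 137095508. With regions within 500 bp taken as shared, 1 of the 9 regions of the window was missing at 30 h instead of 2. No region of the window was new among its 5 at 6 h and 8 at 30 h, against 7.42% and 17.9% of all regions.

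The Esrp1 window held the fewest regions, and all 4 were called at 30 h. Region 1 (chr4:11180836-11181801) had heights of 108 in DMSO, 94.3 at 6 h and 114 at 30 h. Region 2 (chr4:11248982-11250222) had 55.6, 54.7 and 63.7, and region 3 (chr4:11381006-11381307) had 19.3, 19.8 and 20.6. On this depth scale their counting intervals included 100% at both times, with values of 87.5 to 103% at 6 h and 106 to 115% at 30 h. With the depth scale taken from the median pileup of regions called in all lists, regions 1 to 3 stood above DMSO at 6 h, at 125 to 147%. Region 4 (chr4:11381992-11382795) was the only one missing at 6 h. It had a height of 17.5 in DMSO and 26.1 at 30 h, which was 149% (104 to 214%), and 76.2% of all DMSO regions of like pileup were missing at 6 h. Between regions 2 and 3 lay 131 kb with no call in any of the 3 lists.

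Across the windows, the DMSO regions still called were compared by the height left. At 6 h, 7 of the 24 called regions stood below 50% of DMSO (29.2%, against 18.6% of all regions called), and 8 stood above DMSO (33.3%, against 35.1%). At 30 h, 10 of 37 stood below 50% (27.0%, against 9.98%) and 14 above DMSO (37.8%, against 47.9%). Of these 10, 7 were among the 13 regions missing at 6 h only, and 3 were among the 24 called at both times. The share below 50% among all regions missing at 6 h only was not computed, so the 9.98% is not matched to this make-up. All regions below 50% at either time lay in the Grhl2 and Klf5 windows. There the called regions stood at 18.4 to 118% of DMSO at 6 h and 28.7 to 130% at 30 h, with medians of 58.6% and 67.9%. In the Elf3 and Esrp1 windows they stood at 63.1 to 153% and 85.7 to 220%, with medians of 103% and 107%. The medians over all DMSO regions still called were 85.5% and 98.5%. The ranges of the 2 pairs of windows overlap, the pairing was made after the values were seen, and the difference between them was not tested.

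Of the 24 regions called at both times, 21 stood higher at 30 h than at 6 h (87.5%, against 70.3% of all DMSO regions called at both times). That order rests on the depth scale, and on the other scale tried only 13 of the 24 stood higher at 30 h (54.2%, against 40.4% of all). The exceptions on both scales were Klf5 regions 2 and 7 and Elf3 region 9, with DMSO heights of 138, 178 and 121. On the other scale Klf5 regions 3 and 23, Grhl2 regions 5, 7 and 8 and Esrp1 regions 1 to 3 joined them. The percentages of DMSO rest on the scale too. With the median pileup of the regions called in all lists as this other scale, heights at 6 h are 1.43 times and heights at 30 h 1.12 times those given here (0.52 and 0.16 on the log2 scale), for all regions alike. Then 4 of 24 regions stood below 50% at 6 h and 7 of 37 at 30 h, against 7.46% and 7.38% of all regions called, and 4 and 5 regions crossed 100%. On that scale Elf3 region 5 was at 90.3% and 105%, Grhl2 regions 7 and 9 were at 44.0% and 26.3% at 6 h, Klf5 regions 2, 3 and 7 were at 86.8 to 159% over both times, Elf3 region 9 was at 148% and 102%, Esrp1 regions 1 to 3 were at 125 to 147% at 6 h, and Elf3 regions 7 and 8 were at 219% and 212% at 30 h.

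**Figure D4:**
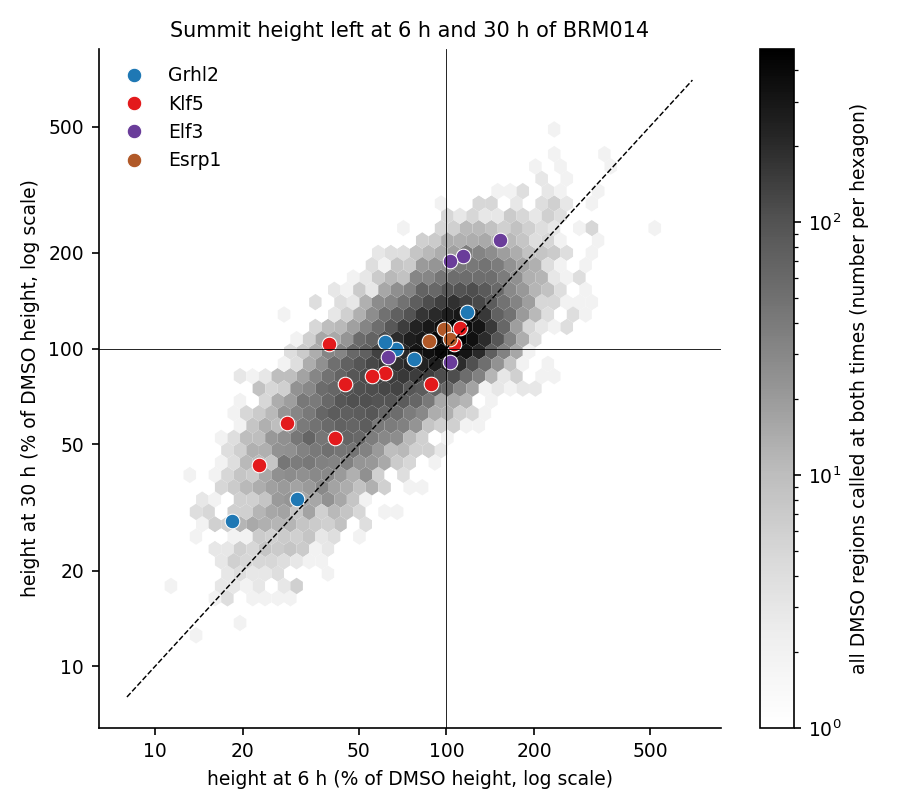
Summit height at 30 h against that at 6 h, each as a percentage of the DMSO height on a log scale, for the 24 regions called at both times (coloured by window) over all 22871 DMSO regions called at both times (grey hexagons, darker for more regions); the dashed line marks equal values. Points of the Grhl2 and Klf5 windows reach down to 18.4% at 6 h, the 5 of Elf3 include 3 near 200% at 30 h, and 21 of the 24 lie above the dashed line on the depth scale drawn, against 13 on the other scale.

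No new region was called at 6 h among the 24 regions of the windows (Wilson interval 0 to 13.8%), against 7.42% of all 6 h regions. At 30 h 3 of the 41 regions were new, 7.32% (2.52 to 19.4%), against 17.9% of all 30 h regions. The share over all 6 h regions lay inside the interval of the members, and so did the share over all 30 h regions. Where a region was kept, its place was kept too. The main summit lay within 50 bp of the DMSO summit in 24 of 24 regions at 6 h and 36 of 37 at 30 h, and the exception, Grhl2 region 8, had moved by 51 bp. Over all DMSO regions still called these shares were 88.7% and 91.3%. Kept regions were mostly narrower, 19 of 24 at 6 h (against 75.2% of all regions called) and 29 of 37 at 30 h (against 66.7%), with median widths of 90.4% and 95.6% of DMSO against 91.4% and 95.2% over all regions.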

How the data were processed

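ATAC-seq peak lists of 3 groups were used, each made by the authors from both replicates with MACS2 2.1.2 on mm9, per the submitters' processing notes and the series' design text. The aligner, filters, read shift and caller options are not given in the sources used here, and the labels' protocol also describes a TGFβ treatment that no sample carries. The deposited values are a score (540 to 1000), a ratio (fold enrichment at the summit), -log10 p and -log10 q values, and the summit offset in bp. The score, ratio and q values deposited by the authors describe or rank regions within their own list.

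Overlapping entries were merged (highest values kept) and regions followed by an overlap of 1 bp. Assuming the caller's defaults, the summit's pileup (a whole number) and local background were recovered from each ratio and -log10 p, and for 100% of entries gave back -log10 p to within 0.001. The smallest background, 3.37 for DMSO, 2.12 at 6 h and 2.72 at 30 h, served as depth, 63.0% and 80.7% of DMSO. Like pileup means the same of 4 bins per doubling. Read totals were not analysed here. Shares have 95% Wilson intervals from statsmodels 0.14.6. Solving, merging and overlap were tested on simulated data. Members, windows and motifs were chosen with earlier results of these data known. Regions named by rule in each window were the 3 DMSO regions of highest -log10 q, the 3 such missing at both times, the 1 missing at 6 h only, up to 2 missing at 30 h only, and the 2 new regions at 30 h and 1 at 6 h, and the others were named after their values were seen.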

Additional observations from a re-analysis of the deposited data

How the results depend on the processing

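Alternatives were an overlap of at least 50%, the summit rule, regions within 500 bp shared, every entry counted, a score of 1000, -log10 q of at least 5, equal lists, windows cut or extended by 25% at each edge, and for heights the depth scale and the treatment of missing regions. Of the 55 values for the 4 loci together, 51 stayed within the interval of the main value and 4 moved. For heights this interval was taken from the ranked values around the median. Some of the 51 could not have moved. A -log10 q of at least 5 changed none of the counts, and a median height of 0 at 6 h stays 0 on any depth scale. The intervals are also wide, so staying inside them is a weak check. With equal lists 34.4% of DMSO regions were missing at 6 h, which leaves out the weakest regions of the longer lists. New regions at 30 h were 0% with a score of 1000 and 0% in the cut windows, since all 3 have a score under 1000 and lie in the outer 25% of their window. With equal lists 5 of 29 regions at 30 h were new (17.2%, against 19.4% of all) and 3 of 24 at 6 h (12.5%), both inside the intervals of 7.32% and 0%. The median height over all 51 DMSO regions at 6 h was 0% of DMSO with missing regions as 0, and 72.6% over the 24 still called. Of 220 values for single windows, 16 moved, mostly where few regions were left. The shallower 6 h list limits which weak regions could be called. No paired analysis was possible because the deposited lists pool the replicates of a group, and leaving out a replicate was not possible either.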
